A study of Mus musculus with 5 samples.

Results

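Cdkn1c, Meg3, Rian, Dlk1, Mest, Peg3, Zim1 and Plagl1 are 8 genes expressed from a single parental allele, chosen by name from the 24411 genes of the table as imprinted genes tied to growth other than Igf2 and H19. They were followed in single cells from the blood of wild type C57BL/6 mouse embryos at embryonic day 9.5 (E9.5, 2 batches) and E10 (3 batches), with no treatment in either group. The blood was drawn from the heart. Cells without TER119, CD41, CD43 and CD45 on their surface, that is cells lacking the usual blood markers, were sorted and then picked by hand, so the cells measured are those that passed the sort and the picking. Each batch is 1 deposited sample of up to 96 wells. How many embryos went into a batch is not given in the sources used here, and p-values between stages therefore measure only the spread between batches, which may be technical.

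Imprinted genes keep a mark from the egg or the sperm, and as a rule only the copy from 1 parent is transcribed. Many of them act on the growth of the fetus and placenta, and paternally expressed genes are often growth promoting while maternally expressed ones often restrain growth. Cdkn1c encodes p57Kip2, an inhibitor of cyclin-dependent kinases that is made from the maternal copy and accompanies cell cycle exit. Meg3 and Rian are long noncoding RNAs made from the maternal copy of the locus whose paternal copy makes Dlk1, a Notch-like membrane protein of progenitor cells. Mest, a member of the hydrolase fold family, Peg3, a zinc finger protein, and Plagl1, a zinc finger transcription factor also called Zac1, come from the paternal copy, and Zim1, a zinc finger gene beside Peg3, comes from the maternal copy.

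Of 480 wells, 111 held 0 UMIs (unique molecular identifiers, 1 per counted molecule), and 294 were kept as cells with at least 1000 genes and 30000 UMIs. Kept cells held between 31294 and 1407021 UMIs, with a median of 308924. The batches held 7545865 to 44415774 UMIs in kept cells. Levels are given as CPM, the UMIs of a gene relative to all UMIs of its cell. Cells with Alas2, the erythroid enzyme of heme synthesis, at 400 CPM or more were called blood (46 cells), those with the neuronal tubulin Tubb3 at 150 or the neural crest factor Sox10 at 50 CPM neural (46 cells), and those with the limb and face mesenchyme factor Prrx1 at 100 CPM mesenchyme (125 cells). A further 74 cells passed no gate, and 3 passed 2 gates and were set aside. The last cell inside and the first outside each gate stood at 616 and 343 CPM for Alas2, 154 and 145 for Tubb3, 56.3 and 42.9 for Sox10 and 105 and 97.8 for Prrx1. The classes differed in the summed level of their marker lists. The 7 neuron markers summed to 582 to 6890 CPM by batch in neural cells, 16.8 to 159 CPM in mesenchyme and 37.2 to 94.9 CPM in blood cells, and the 8 mesenchyme markers to 692 to 2470 CPM in mesenchyme, 281 to 993 CPM in neural and 41.4 to 96.6 CPM in blood cells, so neural and mesenchyme cells overlapped in the latter. The 5 neural crest and glia markers summed to 323 to 1092 CPM in neural cells, where Erbb3 had a median of 0, and to at most 53.1 CPM in mesenchyme cells. All 6 endothelial markers were at a median of 0 in the 3 classes. The 5 pluripotency markers also had medians of 0, but their mean sum was 1303 CPM in neural and 740 CPM in mesenchyme cells of E10 replicate 1 and at most 0.715 CPM in those of the other batches. Their part in the results was not tested, and without E10 replicate 1 the neural over mesenchyme log2 ratios below were 3.31 for Cdkn1c, -2.23 for Mest, -1.76 for Peg3, -1.08 for Dlk1, -0.50 for Meg3 and -1.72 for Rian.

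The 5 batches used the same 96 well barcodes. For 6 kept cells the closest of all other kept cells, of any batch, sat in the identically numbered well of another batch. No 2 columns were identical. Erythroid RNA was present outside blood cells: the 6 erythroid markers summed to 59568 CPM in mesenchyme cells of E10 replicate 2, against 364 to 18110 CPM in the other batches. After each cell was thinned to 30000 UMIs, a UMI of embryonic globin Hbb-y was found in all 46 blood, 46 neural and 125 mesenchyme cells. Prrx1, which erythroid cells should lack, had a UMI in 26.1% of thinned blood cells (95% exact binomial interval 14.3 to 41.1%, which covers counting error only) and in 95.7% of them before thinning, at median depths of 371308 UMIs in blood and 277773 in mesenchyme cells. That share is set beside those of the members in blood below. It belongs to 1 gene, which the gates kept below 100 CPM in blood cells, so it is no common background for all members.

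The members lie at 5 places in the genome (GRCm38, the same assembly as mm10, GENCODE vM21). Dlk1 (chr12:109452823-109463336), Meg3 (chr12:109541001-109571726) and Rian (chr12:109603940-109661716) follow each other on the plus strand, with 77.7 kb between Dlk1 and Meg3 and 32.2 kb between Meg3 and Rian. Zim1 (chr7:6671269-6696450) and Peg3 (chr7:6703892-6730431) lie 7.4 kb apart on the minus strand. Cdkn1c (chr7:143458339-143461050, minus strand), Mest (chr6:30723547-30748465, plus strand) and Plagl1 (chr10:13060504-13131694, plus strand) stand alone among the members. The last 912 bases of Mest overlap Copg2 on the opposite strand, and no strand setting is recorded for the counting, so reads of those 2 genes there cannot be told apart.

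The promoter windows of the 2 loci with several members are shown because their genes are compared with each other below. They are RefSeq windows (GRCm38.p6) from 250 bases before to 50 after the transcription start, read on the gene's own strand, and 7 of the 8 members had at least 1. Meg3 had a further window, chr12:109545148-109545447, with neither of the marked strings. Capitals mark TGACGTCA, the cyclic AMP response element, and GGGGCCCC, a GC-rich sequence that Plagl1 protein is reported to bind. Both read the same on either strand, and they do not overlap here.
Meg3, chr12:109540746-109541045, plus strand: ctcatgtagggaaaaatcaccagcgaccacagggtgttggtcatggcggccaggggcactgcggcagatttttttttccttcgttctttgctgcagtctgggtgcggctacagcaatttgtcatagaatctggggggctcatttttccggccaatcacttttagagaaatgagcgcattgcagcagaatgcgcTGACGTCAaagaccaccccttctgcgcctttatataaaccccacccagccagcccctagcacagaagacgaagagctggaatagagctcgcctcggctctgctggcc
Dlk1, chr12:109452573-109452872, plus strand: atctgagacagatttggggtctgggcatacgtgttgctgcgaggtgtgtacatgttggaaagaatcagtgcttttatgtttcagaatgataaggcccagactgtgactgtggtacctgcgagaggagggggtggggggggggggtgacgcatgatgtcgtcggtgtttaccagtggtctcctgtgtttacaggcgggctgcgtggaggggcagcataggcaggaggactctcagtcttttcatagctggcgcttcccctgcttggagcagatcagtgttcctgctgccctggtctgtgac
Rian, chr12:109603695-109603994, plus strand: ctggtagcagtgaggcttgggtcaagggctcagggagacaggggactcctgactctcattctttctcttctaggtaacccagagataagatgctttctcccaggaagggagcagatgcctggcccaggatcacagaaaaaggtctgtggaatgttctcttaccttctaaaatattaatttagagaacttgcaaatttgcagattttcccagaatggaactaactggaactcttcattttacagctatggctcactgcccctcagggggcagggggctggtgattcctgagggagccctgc
Peg3, chr7:6730370-6730669, minus strand: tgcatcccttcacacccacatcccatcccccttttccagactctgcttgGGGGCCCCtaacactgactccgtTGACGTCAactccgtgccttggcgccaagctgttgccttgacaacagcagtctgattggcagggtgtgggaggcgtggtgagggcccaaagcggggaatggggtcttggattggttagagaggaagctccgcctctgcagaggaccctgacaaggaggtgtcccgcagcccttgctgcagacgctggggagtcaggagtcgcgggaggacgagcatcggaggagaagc
Zim1, chr7:6696383-6696682, minus strand: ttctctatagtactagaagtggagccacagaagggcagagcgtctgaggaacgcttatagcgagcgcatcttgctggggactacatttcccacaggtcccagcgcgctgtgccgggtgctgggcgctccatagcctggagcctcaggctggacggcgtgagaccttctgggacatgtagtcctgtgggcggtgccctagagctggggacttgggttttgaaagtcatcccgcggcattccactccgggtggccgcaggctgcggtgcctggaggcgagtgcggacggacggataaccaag
TGACGTCA stood once in the Meg3 window, from position -57 relative to the start, and once in the Peg3 window, from position -178. It was found in 1.79% of the 32851 windows of all genes. GGGGCCCC was found in the Peg3 window alone among the 10 windows of the members, from position -201, and in 1.08% of all windows. Neither of these strings was present in the Dlk1, Rian or Zim1 window. A match is a description of these letters, and binding was not measured.

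Cdkn1c stood apart from the other members by being high in neural cells. Its batch means in neural cells were 1733 CPM in E9.5 replicate 1, 3819 in E9.5 replicate 2, 1955 in E10 replicate 1, 2540 in E10 replicate 2 and 3694 in E10 replicate 3. Mesenchyme cells of the same batches held 243, 291, 309, 268 and 336 CPM. The lowest neural batch was thus above the highest mesenchyme batch, and the difference was of about the same size at both stages. On average Cdkn1c was at 2748 ± 968 CPM in neural and 289 ± 35.9 CPM in mesenchyme cells (SD, n = 5 batches), a log2 ratio of 3.18 ± 0.43 taken within batches, or 9.05-fold. Class differences are given without a test, since the classes were cut from the same cells and the genes were chosen with class results known.

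Single cells spread far more widely than batch means. Neural cells ranged from 15.8 to 10827 CPM of Cdkn1c with a median of 2555, and mesenchyme cells from 3.99 to 1174 CPM with a median of 247. Of 46 neural cells, 31 were above the highest mesenchyme cell and 40 above the mesenchyme median. The remaining neural cells lay within the range of mesenchyme cells. Cells that passed both neural gates held the most, with a median of 4826 CPM (12 cells), against 2003 CPM in those with Sox10 alone (16 cells) and 1377 CPM in those with Tubb3 alone (18 cells), and all 3 sets overlapped.

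**Figure D1:**
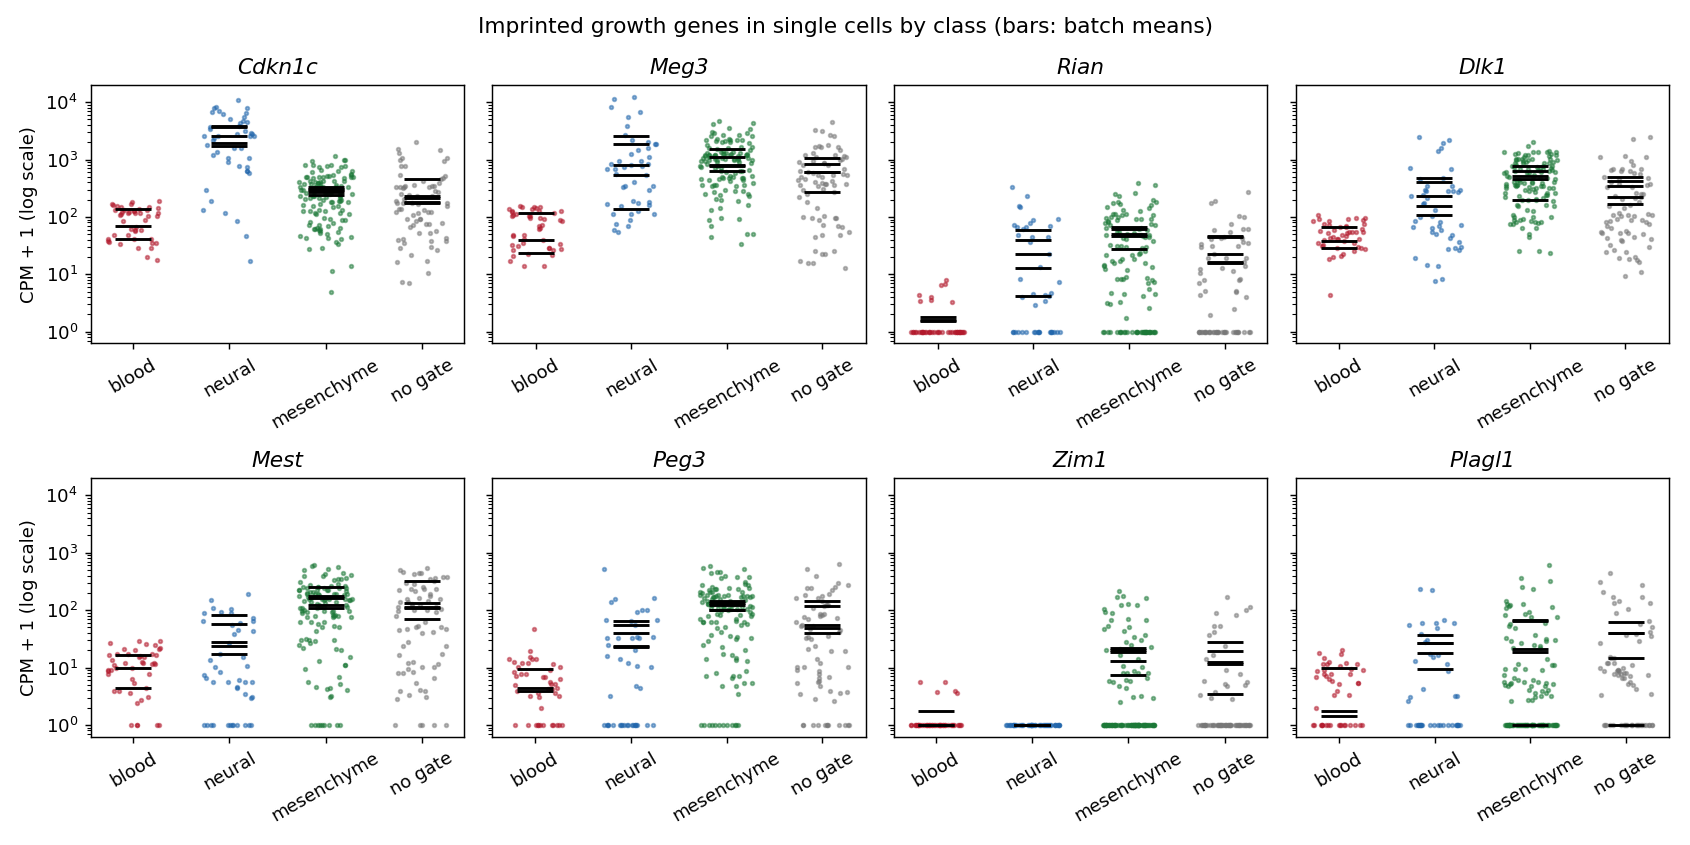
Levels of the 8 members in single cells by class. Each point is a cell (y axis, CPM + 1 on a log scale) and each black bar is the mean of a batch with at least 3 cells of the class; neural cells are high for Cdkn1c, with batch means of 1733 to 3819 CPM, and lie on the axis floor for Zim1.

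The batches with at least 3 blood cells were E9.5 replicate 2 and, at E10, replicates 2 and 3, and blood cells there held 69.3, 135 and 40.3 CPM of Cdkn1c. Each value was below that of mesenchyme cells of the batch, by a log2 ratio of -2.06, -0.98 and -3.03. For all genes the median log2 ratio, as the mean over these batches, was -0.79. The smallest difference fell in E10 replicate 2, the batch with the most erythroid RNA in other cells, and without it the mean log2 ratio moved from -2.02 to -2.54. Neural cells were highest, mesenchyme next and blood lowest, with no overlap of batch means between neighbours. Cells that passed no gate held 253 ± 121 CPM (SD, n = 5), and their batch means overlapped those of mesenchyme cells.

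Cell cycle genes were summed in each cell to set beside Cdkn1c, given the role of p57Kip2. The 15 S phase genes, such as Mcm2 and Pcna, correlated with Cdkn1c across kept cells of a batch at a mean Spearman rho of -0.26 (5 batches, -0.47 to -0.16) and within mesenchyme cells at -0.29 (-0.40 to -0.17), so the sign was negative in each batch. In neural cells the sign was mixed, at -0.50 and 0.21 in the 2 batches with at least 10 cells. For the 15 G2 and M phase genes, such as Mki67 and Top2a, rho was -0.18 over all kept cells (-0.40 to 0.13), -0.09 in mesenchyme cells (-0.22 to 0.06) and -0.52 and -0.09 in the neural cells of those 2 batches. These are descriptions across cells that share a library, and their size is weak. A negative sign was not particular to Cdkn1c. In neural cells the mean rho with the S phase genes was -0.44 for Meg3, -0.45 for Rian and -0.39 for Dlk1, against -0.15 for Cdkn1c. It was -0.08 for Peg3, and positive for Mest (0.31) and Plagl1 (0.30). In mesenchyme cells it was -0.23 for Meg3 (-0.53 to 0.13). Among the other 6 inhibitors of cyclin-dependent kinases, 3 had a mean of at least 5 CPM over the 2 classes and none was 2-fold apart in every batch. Cdkn2d, which encodes p19Ink4d and was singled out after its values were seen, was higher in neural cells in 5 of 5 batches, at 80.3 against 18.1 CPM, with a log2 ratio of 0.85 in the lowest batch.

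None of 3 neighbours of Cdkn1c was higher in neural cells in every batch. Kcnq1ot1, the long noncoding RNA of the paternal copy that silences the domain on that copy, was at 453 CPM in neural and 381 CPM in mesenchyme cells, with overlapping batch means and a log2 ratio of 0.19 ± 0.47 (SD, n = 5). Phlda2, which restrains placental growth, was sparse, at 9.81 and 3.94 CPM with a log2 ratio from -2.86 to 5.40. Slc22a18, a transporter gene, had 21 UMIs in 1 neural cell of E10 replicate 3 and none in the other 45, and 0 UMIs in the 125 mesenchyme cells, where 3 counts would be 0.0719 CPM. Across all kept cells Cdkn1c and Kcnq1ot1 correlated at a mean rho of 0.39 over the 5 batches (0.11 to 0.60), and at 0.19 in mesenchyme cells (-0.02 to 0.54). Both means lay within the range of pairs of members from different loci given below. In the neural cells of E10 replicates 1 and 3 rho was 0.56 and 0.61. Their mean of 0.58 was above the highest such pair in neural cells, at 0.31.

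Mest, Peg3 and Zim1 had the opposite class pattern to Cdkn1c, being lower in neural than in mesenchyme cells of every batch. For Mest the neural batch means, in the order of batches used above, were 55.7, 16.1, 26.8, 82.7 and 22.6 CPM, and the mesenchyme means were 177, 165, 110, 255 and 121 CPM. The highest neural batch was below the lowest mesenchyme batch, and the mean log2 ratio was -2.18 ± 0.68 (SD, n = 5). Peg3 was at 21.9, 38.9, 63.7, 55.1 and 22.9 CPM in neural and 99.3, 98.8, 146, 134 and 120 CPM in mesenchyme cells, again with no overlap, and its log2 ratio was -1.65 ± 0.54.

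Zim1 was not found in neural cells at all: the 46 cells together held 0 UMIs of Zim1 among 14252438, and 3 counts would be 0.210 CPM over the class. It had a UMI in 45 of 125 mesenchyme cells, with batch means of 17.6, 18.9, 20.9, 6.39 and 12.01 CPM. Over the class as a whole mesenchyme held 18.3 CPM, 86.8-fold the level that 3 counts would give in neural cells. Without E10 replicate 1, which held 586 of the 763 mesenchyme UMIs, that value was 36.4-fold, and without E10 replicate 3 it was 56.3-fold. These values take UMIs as drawn singly from the pooled cells. UMIs of Zim1 were gathered in some of the mesenchyme cells, so the fold values are no lower bound on the difference between the classes. A count of 0 in 46 cells allows a share of up to 6.52% of cells with a UMI. This covers counting error only and does not limit the share of cells that express the gene. Within mesenchyme the gene was uneven, since cells reached 214 CPM while the median was 0.

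Read against the whole table, 1 member (Cdkn1c) was at least 2-fold higher in neural than in mesenchyme cells in every batch, where 1.51% of the 10432 genes at a mean of 5 CPM or more were, and 3 members (Mest, Peg3, Zim1) were at least 2-fold lower, where 1.49% of genes were. With medians over cells in place of means, the counts were 1 higher and 1 lower, since Peg3 stayed under 2-fold in E10 replicate 2 and Zim1 had a median of 0 in both classes. The median log2 ratio of the 8 members was -1.15, beside -0.07 for all genes. Nothing is read from these counts, because the members were named with the class pattern known. Of 34 other imprinted genes 27 reached that level, and 1 was higher and 2 were lower by the same rule. Peg13, a noncoding RNA known from brain, was the higher gene, at 80.3 against 6.34 CPM, and the lower were Igf2, the fetal growth factor, at 198 against 1570 CPM, and Airn, the noncoding RNA of the Igf2r locus, at 4.28 against 14.1 CPM. H19, the noncoding partner of Igf2, was at 719 against 1635 CPM, lower in 5 of 5 batches, with batch means that overlapped.

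Blood cells were low for most members. By the same rule 6 members (Meg3, Rian, Dlk1, Mest, Peg3, Zim1) were at least 2-fold lower in blood than in mesenchyme cells in each of 3 batches, where 21.7% of 9433 genes were, and none was higher, where 3.39% of genes were. The median log2 ratio was -3.72 for the 8 members and -0.79 for all genes. The 6 erythroid markers summed to 148306 to 208280 CPM by batch in blood cells, and their part in these ratios was not tested. Nothing is read from these counts either. Blood held 22.6, 117 and 38.2 CPM of Meg3 in these batches, in the order given for Cdkn1c, against 763, 618 and 1123 CPM in mesenchyme. For Dlk1 the blood values were 37.1, 66.6 and 27.9 CPM and the mesenchyme values 520, 200 and 456 CPM. Blood was highest in E10 replicate 2 for both genes, and without that batch the mean log2 ratio went from -4.09 to -4.93 for Meg3 and from -3.11 to -3.88 for Dlk1.

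The rest of the blood values were low. Mest was at 9.09 ± 5.91 CPM, Peg3 at 4.92 ± 3.07 CPM and Rian at 0.63 ± 0.14 CPM (SD, n = 3 batches). In thinned blood cells a UMI was found for Mest in 28.3%, Peg3 in 17.4%, Plagl1 in 15.2% and Rian and Zim1 in 2.17% of cells each. Each of these shares was below the 26.1% of Prrx1 or within its interval. Shares for Meg3 (91.3%), Cdkn1c (84.8%) and Dlk1 (82.6%) were higher than that of Prrx1. Before thinning, a UMI was found in 89.1% of blood cells for Mest, 73.9% for Peg3 and 60.9% for Plagl1. It was found in 17.4% for Rian and 10.9% for Zim1, beside 95.7% for Prrx1. Prrx1 was at 7.29, 19.5 and 11.9 CPM in blood and at 274, 342 and 548 CPM in mesenchyme cells of these batches. Because the genes differ in level in other cells, their shares cannot tell expression in blood from UMIs of other cells. How much of the UMIs of Meg3, Cdkn1c and Dlk1 came from other cells of the pool was not tested. Of 24 other imprinted genes at a mean of 5 CPM or more, 13 were 2-fold lower in blood in each batch and 0 were 2-fold higher. By less than 2-fold on average, H19 was higher in blood than in mesenchyme cells in 3 of 3 batches. It was at 3212 against 1907 CPM, a mean log2 ratio of 0.83, with overlapping batch means.

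Meg3, Rian and Dlk1, the 3 members of 1 locus, did not have a fixed order between neural and mesenchyme cells. Meg3 in neural cells was at 134 and 533 CPM in the 2 batches of E9.5 and at 2548, 792 and 1875 CPM in the 3 of E10. Mesenchyme cells held 804 and 763 CPM at E9.5 and 1530, 618 and 1123 CPM at E10. Neural cells were thus below mesenchyme cells in both batches of E9.5 and above them in all 3 of E10. Within batches the log2 ratio was -2.58 and -0.52 at E9.5 and 0.74, 0.36 and 0.74 at E10.

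Dlk1 and Rian moved between batches in a similar order. Dlk1 in neural cells was at 156, 228, 399, 109 and 468 CPM and in mesenchyme cells at 764, 520, 632, 200 and 456 CPM, with log2 ratios of -2.28, -1.19, -0.66, -0.87 and 0.04. Rian was at 3.20, 11.8, 58.1, 21.2 and 39.3 CPM in neural and at 66.3, 60.6, 45.6, 26.2 and 48.8 CPM in mesenchyme cells, with log2 ratios of -4.00, -2.27, 0.34, -0.30 and -0.30. For both genes the 2 batches of E9.5 had the lowest ratios of the 5. Batch means of the 2 classes overlapped for each of the 3 genes, so no order of classes holds beyond the spread between batches.

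**Figure D2:**
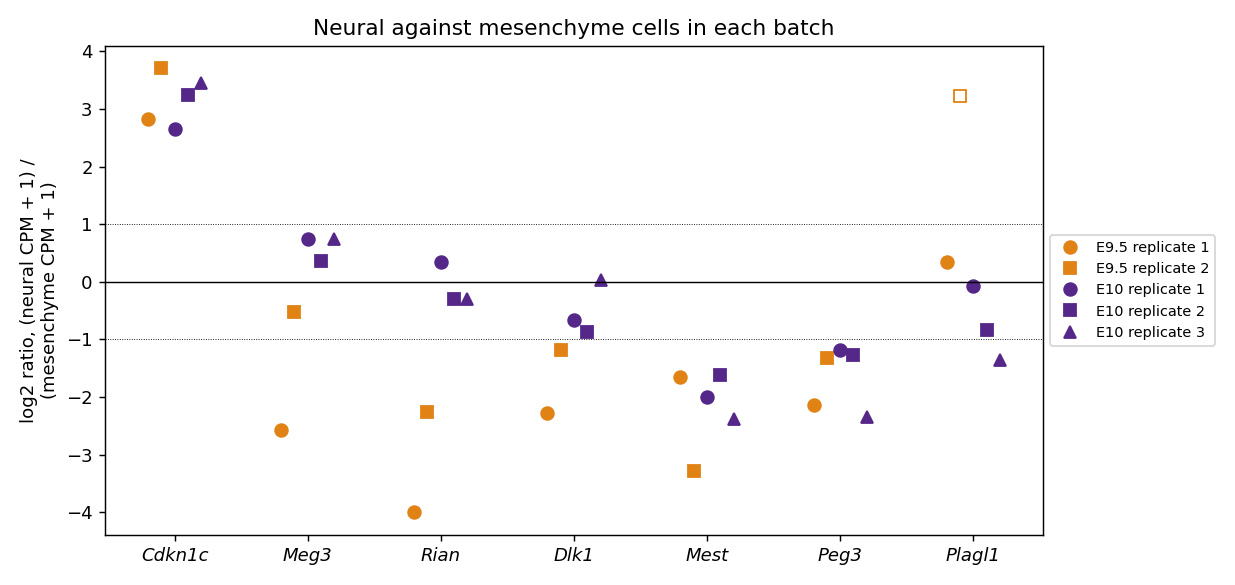
Log2 ratio of the mean level in neural over mesenchyme cells, each with 1 CPM added (y axis), for 7 members in each of the 5 batches; dotted lines mark 2-fold. Cdkn1c lies between 2.66 and 3.71 in every batch, Meg3 is below 0 in the 2 batches of E9.5 and above 0 in the 3 of E10, the open symbol of Plagl1 is a batch with 0 UMIs in mesenchyme cells, and Zim1 is left out because its neural cells are at 0.

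The change of this ratio between stages was tested with edgeR on counts summed per batch and class, with batch as a block, a test added after the ratios were seen. The ratio of Meg3 rose by a log2 value of 1.84 (SE 0.40) with an unadjusted p of 0.000197, and its adjusted p over 12860 genes was 0.307, short of the threshold of 0.05. The adjusted p ranged from 3.6e-05 without the filter on low counts to 1 without E10 replicate 1, and DESeq2 gave 0.0253. E9.5 replicate 1 carried much of the size: without it the log2 value was 0.91 with an adjusted p of 0.751, and without E9.5 replicate 2 it was 2.83 with 7.2e-05. For Rian the log2 value was 3.16 (adjusted p 0.806) and for Dlk1 1.05 (adjusted p 1), both by edgeR.

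The makeup of the neural cells differed between these batches. Meg3 was low in neural cells that passed the Sox10 gate alone, with a median of 156 CPM (54.1 to 2231, 16 cells), and higher in those with Tubb3 alone, at 1022 CPM (67.0 to 12449, 18 cells), or both, at 829 CPM (111 to 5582, 12 cells). The 3 neural cells of E9.5 replicate 1 all had Sox10 alone, as did 2 of 7 in E9.5 replicate 2, 6 of 13 in E10 replicate 1, 2 of 4 in E10 replicate 2 and 3 of 19 in E10 replicate 3. The 7 neuron markers summed to 582 CPM in the neural cells of E9.5 replicate 1 and to 1413 to 6890 CPM in the other batches. The 8 mesenchyme markers summed to 993 CPM in these cells and to 281 to 527 CPM in neural cells of the other batches. For the 5 neural crest and glia markers the sums were 893 CPM and 323 to 1092 CPM. The part of the gates and of these markers in the stage difference was not tested.

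The levels of Meg3 within each gate are given by batch, a description added after the makeup was seen and resting on few cells. They are levels in neural cells and not ratios to mesenchyme cells. Among cells with Sox10 alone the median of Meg3 was 124 CPM (3 cells) and 56.4 CPM (2 cells) in the batches of E9.5, and 251 (6 cells), 225 (2 cells) and 336 CPM (3 cells) in those of E10. Both E9.5 medians were below the 3 of E10, on 2 to 6 cells each, and this difference was not tested. Among cells with Tubb3, with or without Sox10, the median was 828 CPM in E9.5 replicate 2 (5 cells) and 1230 (7 cells), 1358 (2 cells) and 1192 CPM (16 cells) in E10, and E9.5 replicate 1 had no such cell.

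**Figure D3:**
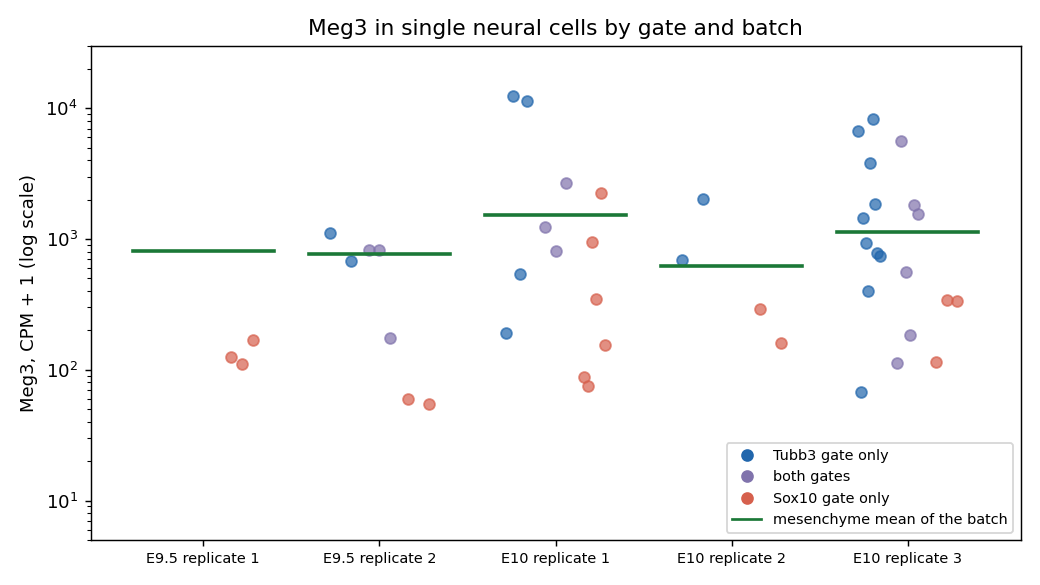
Meg3 in each neural cell (y axis, CPM + 1 on a log scale) by batch (x axis), coloured by the gate the cell passed, with the mean of the mesenchyme cells of the batch as a green line. The 3 neural cells of E9.5 replicate 1 all passed the Sox10 gate alone and lie between 110 and 167 CPM.

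Plagl1 varied widely between batches. In mesenchyme cells it was at 19.9 CPM in E9.5 replicate 1, 0 in E9.5 replicate 2, 17.8 in E10 replicate 1, 64.6 in E10 replicate 2 and 67.1 in E10 replicate 3. The 21 mesenchyme cells of E9.5 replicate 2 held 0 UMIs of Plagl1 among 2161972, where 3 counts would be 1.39 CPM, and the whole batch held 14 UMIs. In neural cells the batch means were 25.6, 8.38, 17.0, 35.5 and 25.7 CPM, the E9.5 replicate 2 value resting on 1 cell of 7. Classes overlapped, and no order of neural and mesenchyme cells holds.

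Between stages no member passed the test within a class or over all cells. With counts summed per batch, the quasi-likelihood test of edgeR, adjusted by Benjamini-Hochberg, called 0 of 14103 genes (0%) over all kept cells, 0 of 11528 in mesenchyme cells and 0 of 10201 in neural cells, where DESeq2 called 86, 119 and 43. Unadjusted p-values under 0.05 numbered 1119, 1173 and 608. Over all kept cells and in mesenchyme cells 8 members were tested, and in neural cells 7, since Zim1 had no counts there.

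For Cdkn1c the log2 value of E10 over E9.5 was 0.08 (SE 0.54) over all kept cells, 0.04 (SE 0.24) in mesenchyme cells and 0.08 (SE 0.42) in neural cells, with edgeR adjusted p-values of 0.977, 0.977 and 0.99. Summed over all kept cells Cdkn1c was at 320 and 887 CPM after TMM scaling at E9.5 and at 411, 484 and 1020 CPM at E10.

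Meg3 had the lowest p of the members in neural cells. Its log2 value of E10 over E9.5 was 2.13 (SE 0.55; edgeR, adjusted p 0.777), and it was 1.43 without E9.5 replicate 1 and 3.42 without E9.5 replicate 2. The adjusted p ranged over the alternatives from 4.2e-05 without the filter to 1.00 without E10 replicate 3, with 0.0288 by DESeq2. For Rian in neural cells the value was 2.26 (SE 0.83; edgeR, adjusted p 0.824). In mesenchyme cells the values were 0.54 for Meg3, -0.81 for Rian and -0.73 for Dlk1, with adjusted p-values by edgeR of 0.592, 0.544 and 0.543. For Plagl1 in mesenchyme cells it was 2.45 (SE 1.08; edgeR, adjusted p 0.486), with adjusted p-values from 0.00701 without the filter to 0.73 without E10 replicate 3. Without E9.5 replicate 2, the batch at 0, its value was 1.54, and without E9.5 replicate 1, which leaves only the batch at 0 to stand for E9.5, the fitted value was 11.9 (edgeR, adjusted p 0.271) and is no measure of size. The other imprinted genes gave 0 calls among 31 tested over all cells, 29 in mesenchyme and 26 in neural cells, with median log2 changes of 0.10, -0.03 and 0.15.

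Meg3 and Dlk1 went together from cell to cell. Their mean within-batch Spearman rho was 0.68 over all kept cells, with 0.54, 0.77, 0.58, 0.77 and 0.74 in the 5 batches. Each was the gene most like the other among 9974 genes found in at least 25% of kept cells. Within mesenchyme cells rho was 0.48 (0.35 to 0.60), Meg3 was still the gene most like Dlk1 among 9572, and Dlk1 ranked second for Meg3 behind Egr1, an immediate early gene. In the neural cells of E10 replicates 1 and 3 rho was 0.69 and 0.71.

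Meg3 and Rian, which are thought to be made from the same copy in 1 direction, correlated at 0.50 over all kept cells (0.31 to 0.66), at 0.26 in mesenchyme cells (0.02 to 0.62) and at 0.66 and 0.54 in neural cells of the same 2 batches. Meg3 was the gene most like Rian over all kept cells. In cells thinned to 30000 UMIs, all 54 mesenchyme cells and all 17 neural cells with a UMI of Rian also had one of Meg3, which was found in every cell of these 2 classes. Rian and Dlk1 correlated at 0.38 over all kept cells and 0.16 in mesenchyme cells. Mirg, a noncoding RNA further along, and Rtl1, a paternally expressed gene opposite to Meg3 in direction, were sparse, and their rho with Meg3 was 0.26 and 0.13 over all kept cells. For Rian and Mirg rho was 0.02 over all kept cells (-0.18 to 0.16) and -0.09 in mesenchyme cells.

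At the other loci the correlation was lower. Peg3 and Zim1 were at 0.23 over all kept cells and 0.18 in mesenchyme cells, where thinned cells held both genes in 21, Peg3 alone in 77, Zim1 alone in 3 and neither in 24 of 125 cells. Peg3 and Usp29, a gene that starts 147 bases from Peg3 on the other strand, were at 0.37 over all kept cells and 0.10 in mesenchyme cells. Mest and Copg2 were at 0.14 and 0.19. Pairs of members from different loci had a median rho of 0.18 over all kept cells (24 pairs, -0.11 to 0.47) and 0.07 in mesenchyme cells (-0.17 to 0.35). In these cells the values at these loci, and those of Rian with Dlk1 and of Meg3 with Mirg and Rtl1, lie among those of unlinked pairs. Over all kept cells Meg3 lay above the highest of them with both Dlk1 and Rian, and in mesenchyme cells with Dlk1 but not with Rian. In the neural cells of E10 replicates 1 and 3, 18 unlinked pairs ran from -0.49 to 0.31. Meg3 lay above them with Dlk1 (0.70), Rian (0.60) and Mirg (0.51). Rian with Dlk1 (0.24) and Mirg (0.22), Peg3 with Usp29 (0.18) and Mest with Copg2 (-0.01) lay within that range. Neural cells mix cells of different gates. Over all batches, medians of Meg3, Dlk1 and Rian were 156, 62.6 and 0 CPM in cells with Sox10 alone. They were 1022, 257 and 40.1 CPM with Tubb3 alone and 829, 250 and 0.94 CPM with both. The part of this mix in the rho values of neural cells was not tested. All genes of a cell share its depth: rho with total UMIs over all kept cells was -0.39 for Meg3 and -0.32 for Dlk1, and in mesenchyme cells -0.16 and -0.13. With every cell thinned to the same 30000 UMIs, rho of Meg3 and Dlk1 was 0.61 over all kept cells and 0.52 in mesenchyme cells.

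**Figure D4:**
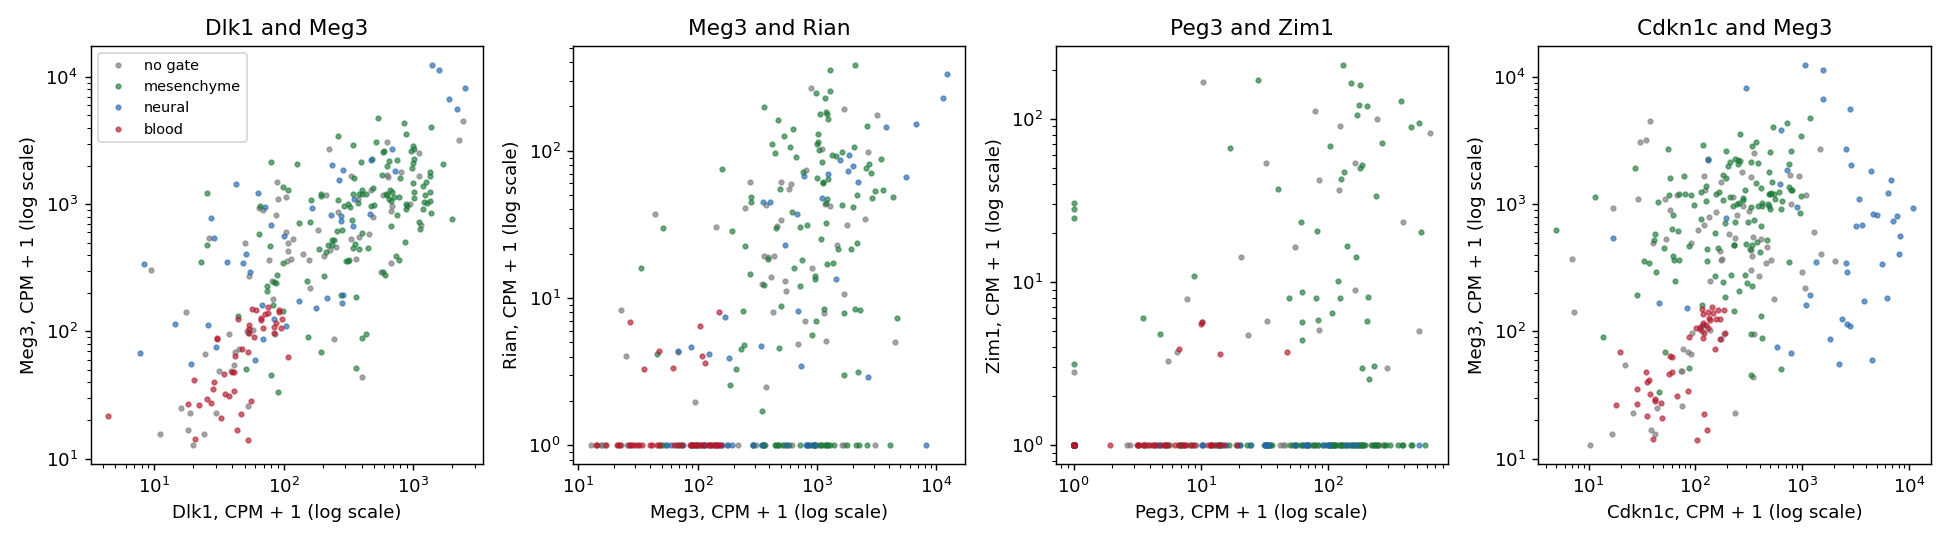
Levels of 4 gene pairs in single cells (both axes CPM + 1 on log scales), coloured by class. Meg3 and Dlk1 rise together, with a mean within-batch rho of 0.68 over all kept cells. It was not taken within blood cells or cells that passed no gate. Most cells lie on the floor for Zim1 whatever their Peg3, and neural cells are set off to the right for Cdkn1c.

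**Figure D5:**
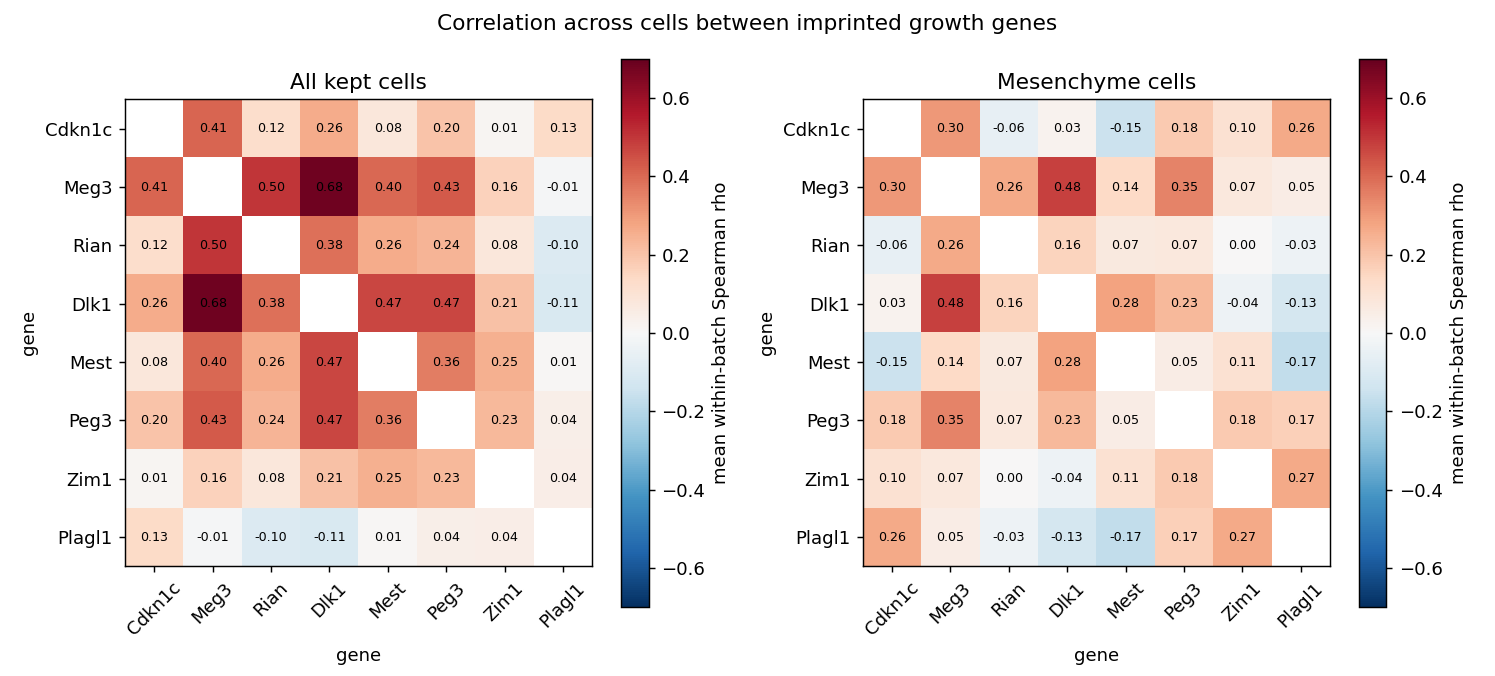
Mean within-batch Spearman rho between the 8 members, over all kept cells (left) and within mesenchyme cells (right); colour runs from blue (negative) to red (positive). The darkest square in both is Meg3 with Dlk1, at 0.68 and 0.48.

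The genes most like each member over all kept cells were ranked by mean rho over 5 batches and 294 cells. How many of the 9974 genes ranked are imprinted was not counted, so nothing is read from imprinted genes among them. For Cdkn1c the first 5 were Gnas (0.64), Tuba1a (0.62), Grb10 (0.52), Chd3 (0.50) and Nedd4 (0.49). Of these, Gnas, encoding a G protein subunit, and Grb10, a growth factor receptor adaptor, are in the list of other imprinted genes. For Mest they were Igf2 and Gpc3 (0.53 each), Igfbp4 (0.51), Meis2 (0.50) and Mdk (0.49). For Dlk1 they included, after Meg3, Mdk (0.64), Meis2 (0.58) and Gpc3 (0.57), and for Peg3 they included Gas1 (0.48), Meis2 (0.48), Nasp (0.47) and Dlk1 (0.47). Plagl1 had none above 0.29, the value for Tln1.

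All kept cells hold blood, neural and mesenchyme cells together, so genes that differ between the classes also correlate there. Within mesenchyme cells alone, a ranking added after the first was seen, the 5 genes most like Cdkn1c were Cpxm1 (0.47), Pcnxl3 (0.45), Tpm1 (0.43), Zyx (0.41) and H19 (0.40), and rho of Mest with Igf2 was -0.01. For Peg3 the second gene was Igf2, at 0.38. Zim1 was led by the mesenchymal transcription factor Foxc2 at 0.37, and it was found in too few cells for the ranking over all kept cells.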

How the data were processed

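Single cells of 2 stages (5 batches) were measured by a modified STRT-seq protocol, per the labels' protocols, in which an oligo-dT primer carries a cell barcode and a UMI, so that each gene is counted near its 3′ end. Per the submitters' processing notes, CASAVA 1.8, TopHat2 2.0.12 and HTSeq (version not given in the sources used here) were used with the genome build mm10. The deposited values are whole-number UMI counts for 24411 genes, 95 spike-in rows and 480 wells. Columns were matched to samples by the batch number in their names.

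Spike-in rows were dropped, and cells needed at least 1000 genes and 30000 UMIs. CPM per cell, gates and batch means were computed from the counts with Python 3.11.15, pandas 2.3.3 and scipy 1.17.1. Ratios used a pseudocount of 1 CPM, needed 3 cells per class and batch, and covered genes with a mean of at least 5 CPM over the 2 classes. Correlations were taken within batches of at least 10 cells. No doublet caller was run: 3 cells that passed 2 gates were left out of the classes. Stages were compared with edgeR 4.0.16 in R 4.3.3 (sums per batch, filterByExpr, TMM, quasi-likelihood test, Benjamini-Hochberg adjustment, threshold 0.05), with DESeq2 1.42.0 as an alternative. The edgeR fits were also run on simulated data, and the share of changed genes that they recovered is not given here. Other alternatives changed scaling, filters, gates, pseudocount and depth and left out each batch. Named genes are the 8 members, their neighbours, fixed lists of imprinted and cell cycle genes by counts, and the 5 genes most like each member, of which 1 is not reported here. The members and lists were chosen with earlier results of these data known.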

Additional observations from a re-analysis of the deposited data

Results flagged for a closer look

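The log2 ratio of Meg3 in neural over mesenchyme cells was negative in both batches of E9.5 (mean -1.55) and positive in all 3 batches of E10 (mean 0.61), a difference of 2.16 between stages. By edgeR's interaction test its adjusted p was 0.307, and it passed in DESeq2 (0.0253). An exact permutation test with batches as the unit gave p = 0.2, as it did for Plagl1 below. That is the smallest p that the 10 splits of the batches allow. Neural cells with Sox10 alone, in which Meg3 was low, numbered 3 of 3 and 2 of 7 in the batches of E9.5 and 6 of 13, 2 of 4 and 3 of 19 in those of E10, and their part was not tested.

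The same ratio of Plagl1 had the opposite signs, positive in both batches of E9.5 and negative in all 3 batches of E10, a difference of -2.55. The edgeR interaction test gave an adjusted p of 1, and E9.5 replicate 2, whose mesenchyme cells held 0 UMIs of Plagl1, set most of the size: the fitted log2 value was -2.58 with all batches and -0.82 without it. Without E9.5 replicate 1 it was -9.81, a fitted value against a batch at 0.

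None of the batch means of the members stood far enough from the other batches of its class to be singled out, over 15 sets of 5 batch values in mesenchyme and neural cells, where chance alone would single out about 1 in 20.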

How the results depend on the processing

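Calls between stages depended on the tool and the filter. With DESeq2 in place of edgeR, 86 genes passed over all kept cells, 119 in mesenchyme cells, 43 in neural cells and 12 in the stage-by-class test, against 0 in each by edgeR. Without the filter on low counts edgeR called 156 genes in mesenchyme cells, 93 in neural cells and 18 in the stage-by-class test. Leaving out each batch in turn gave 0 to 12 calls in mesenchyme cells, 0 to 8 in neural cells and 0 to 37 in the stage-by-class test, the highest of each without E9.5 replicate 2, and 0 over all kept cells. The cause was not tested. Members 2-fold apart between neural and mesenchyme cells numbered 2 with medians over cells in place of means, against 4, since the Zim1 median was 0 in both classes and Peg3 stayed under 2-fold in E10 replicate 2; the log2 ratio of Zim1 rests on the pseudocount, at -3.91 with 1 CPM and -1.30 with 10 CPM. Of 77 checks on counts of calls and other main values 63 kept their side of the threshold or their size, and 14 did not; of 526 checks on single genes and pairs 510 did, and 16 did not. No paired analysis was possible because each batch holds 1 stage and replicate numbers only name the batches. Zim1 was found in 36% of mesenchyme cells at full depth and in 19.2% of them after thinning. It was found in 0 of 46 neural cells at either depth. Median full depth was 277773 UMIs in mesenchyme and 279611 UMIs in neural cells. The part of depth in the class difference was not tested.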
